A study of Mus musculus with 6 samples.

Results

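Cytochrome P450 enzymes are heme monooxygenases that insert an oxygen atom into drugs, fatty acids, sterols, retinoids and eicosanoids. The mouse genes are named by family, subfamily and member (Cyp, a number, a letter and a number), and they were taken here as every probe whose annotated gene symbol is Cyp followed by a digit, Cyp51 excepted. That rule gave 100 probes of 74 genes, out of 25697 probes of 16593 named genes on the Illumina mouse bead array, and 18 of the 74 genes had more than 1 probe. The members were chosen by gene symbol, but the family was selected on the measured values of this comparison, the log2 change of Cyp2c65 being known, so the changes of its members between the groups are given as a description and no test is drawn from them.

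The RNA came from GIF-14, a line of fetal mouse gastric epithelial cells of the genotype Runx3-/-;p53-/-, which all 6 arrays share. There were 3 arrays of cells without added factor, here called untreated 1 to 3, and 3 arrays, TGF-β1 1 to 3, of cells given recombinant TGF-β1 at 2.5 ng/ml for 24 h. Both groups lack Runx3 and p53 and come from 1 line whose epithelial fraction was separated before treatment, so neither a cell with Runx3 nor a second line stands beside them. The methods give the arrays as biological triplicates of 1 line. Standard errors below are moderated ones from the limma fit, which draws the spread of each probe between arrays toward that of all tested probes.

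Most P450 enzymes sit in the endoplasmic reticulum and receive electrons from P450 reductase or cytochrome b5. Some steroidogenic members, such as Cyp11a1, work in mitochondria instead. Families Cyp1 to Cyp4 oxidize foreign compounds and fatty acids, and many of their genes lie in tandem clusters that are most active in liver, with some members expressed in the lining of the gut. Their transcription is known to respond to the aryl hydrocarbon receptor and to nuclear receptors such as the pregnane X receptor.

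The arrays resembled each other closely, with correlations of log2 signal over all probes of 0.988 to 0.996 within a group and 0.967 to 0.976 between groups. Between 11381 and 11797 probes were detected on an array, and the mean raw signal ran from 406 to 519 units, being lowest on TGF-β1 array 1 (406) and untreated array 3 (435). Those 2 arrays also deviated from their group means in the same way (r = 0.784 over probes). The Runx3 probe was detected on no array, with log2 signals of 5.82 to 6.18, and Trp53 was not analysed here. Among gastric epithelial markers, Krt8, Krt18, Krt19, Cdh1 and Cldn18 were detected on all 6 arrays, whereas Sox2, Muc5ac and Muc6 were detected on none.

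P450 transcripts were sparse in these cells. A probe counted as detected on an array where the deposited detection p-value was under 0.05, and it was tested where it was detected on all 3 arrays of at least 1 group. By that filter 23 of the 100 P450 probes, from 17 genes, were tested, or 23% beside 43.5% of all probes on the array. Of the 23 probes, 16 were detected on all 6 arrays, 6 on all 3 untreated arrays and no TGF-β1 array, and 1 on all 3 untreated arrays and 1 TGF-β1 array. None had the reverse pattern, detected on all TGF-β1 arrays and no untreated array. The untreated arrays detected 25, 24 and 28 P450 probes and the TGF-β1 arrays 16, 17 and 18, so the groups did not overlap in this count. Over all probes the counts were 11797, 11760 and 11476 untreated and 11436, 11493 and 11381 with TGF-β1, and these overlapped.

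**Figure D1:**
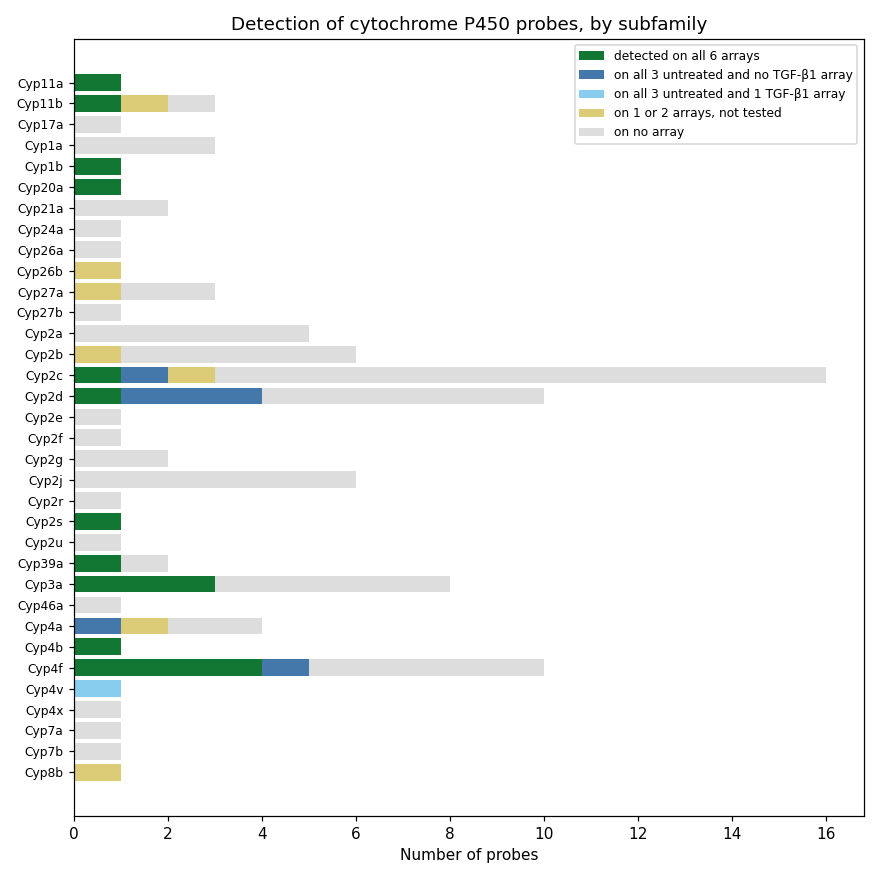
Number of cytochrome P450 probes (x axis) in each subfamily (y axis), with colours for probes detected on all 6 arrays, on the 3 untreated arrays and none or 1 of the TGF-β1 arrays, on 1 or 2 arrays, or on no array (grey). Of 100 probes, 70 were detected on no array.

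The 70 probes detected on no array had log2 signals of 5.79 to 6.64, and for 51 genes no probe was detected anywhere. They included every probe of the Cyp1a, Cyp2a, Cyp2e and Cyp2j subfamilies, well known for oxidizing drugs and fatty acids in liver, and of Cyp7a and Cyp7b, which act in bile acid synthesis from cholesterol. Cyp24a and Cyp26a, which break down vitamin D and retinoic acid, were likewise detected on no array. The remaining 7 untested probes were detected on 1 or 2 arrays. Cyp2b10, a target of the constitutive androstane receptor, and Cyp8b1, the sterol hydroxylase of cholic acid synthesis, were each detected on 2 untreated arrays. Cyp26b1, a retinoic acid hydroxylase, was detected on 2 TGF-β1 arrays. Cyp2c55, Cyp4a12b and a probe each of Cyp11b2 and Cyp27a1 were detected on 1 untreated array.

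After quantile normalization and a limma fit over all 11189 tested probes with Benjamini-Hochberg adjustment, 14 P450 probes from 10 genes fell, 1 probe (Cyp4b1) rose and 8 did not pass an adjusted p of 0.05, 6 genes having no probe that passed. Over all tested probes 32.3% passed, 15.9% falling and 16.4% rising. The same 14 probes had every TGF-β1 array below every untreated array, beside 21.5% of all tested probes, and Cyp4b1 had every TGF-β1 array above every untreated array, beside 24.5%. The fitted log2 change was -1 or less for 9 of the probes that fell, from 7 genes, beside 3.45% of all tested probes, and 1 or more for 1 probe, beside 1.93%. Of those 9 probes, 4 were not above background with TGF-β1, so that their fitted change is not a measured fold. The median log2 change was -0.45 over the 23 P450 probes and 0.041 over all tested probes. Because a probe that is lost to background could only enter through the untreated arrays, the 16 probes detected on all 6 arrays were also taken alone: 7 fell, beside 14.7% of all such probes, 1 rose, beside 16.6%, and their median was -0.10 beside 0.048. As the family was chosen with this contrast known, nothing is read from these shares. In bulk RNA, fewer cells of a type and less RNA per cell cannot be told apart.

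**Figure D2:**
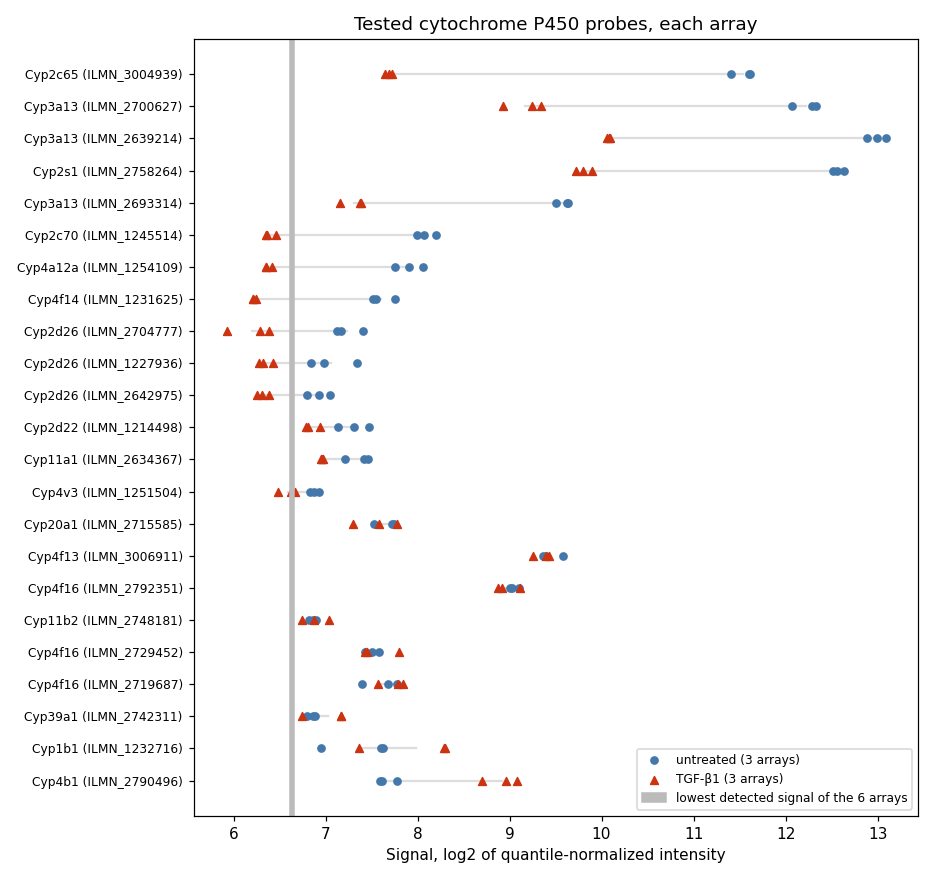
Quantile-normalized log2 signal (x axis) of each of the 23 tested cytochrome P450 probes (y axis) on the 3 untreated and the 3 TGF-β1 arrays, each point 1 array, with a grey line joining the group means and a vertical bar at the lowest detected signals. Cyp2c65, Cyp2s1 and the 3 Cyp3a13 probes show the widest gaps between groups, and Cyp4b1 is the 1 called probe with all TGF-β1 arrays to the right of the untreated ones.

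The largest decreases were in Cyp2c65, Cyp3a13 and Cyp2s1. Cyp2c65 belongs to the subfamily that epoxidizes arachidonic acid and oxidizes drugs. Untreated, its log2 signal was 11.60, 11.41 and 11.61, and with TGF-β1 it was 7.72, 7.69 and 7.65. The groups lay far apart, the TGF-β1 arrays differed from each other by less than the untreated arrays did, and the signal remained detected on all 6. The log2 change was -3.86 with a standard error of 0.089 (n = 3 arrays per group), a 14.5-fold decrease and the third largest downward change of the 11189 tested probes.

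Cyp3a13 encodes a drug- and steroid-oxidizing enzyme of the Cyp3a subfamily that is prominent in mouse intestine, and it was measured by 3 probes, all detected on every array. The brightest probe, ILMN_2639214, read 13.09, 13.00 and 12.88 untreated and 10.06, 10.08 and 10.09 with TGF-β1. The other probes read 12.07, 12.33 and 12.29 against 9.34, 9.24 and 8.93 (ILMN_2700627), and 9.63, 9.63 and 9.51 against 7.39, 7.37 and 7.16 (ILMN_2693314). In each probe all TGF-β1 arrays lay below all untreated arrays. The log2 changes were -2.91 (SE 0.085), -3.06 (SE 0.13) and -2.28 (SE 0.095), or 7.52-, 8.32- and 4.86-fold lower.

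Cyp2s1 encodes an enzyme of epithelia outside the liver that is inducible through the aryl hydrocarbon receptor. It read 12.64, 12.52 and 12.56 on untreated arrays and 9.80, 9.89 and 9.72 on TGF-β1 arrays. The log2 change was -2.77 (SE 0.086, n = 3 per group), 6.81-fold lower, with no overlap. Aldh3a1, an aldehyde dehydrogenase that is also inducible through that receptor, fell by 3.01 on the log2 scale (SE 0.10), whereas the probe of Ahr itself was detected on no array. Aldh3a1 was 1 of 4 genes outside the P450 family listed as targets of that receptor. The other 3, Nqo1, Tiparp and Ahrr, were detected on no array.

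The promoter windows of the members with the widest gaps and of the 1 member that rose are shown so that their start regions can be compared. Each runs 5′ to 3′ on the gene's own strand, from 250 bases before to 50 bases after the RefSeq start, from GRCm38.p6, and capitals mark the E-box CAGGTG (read as CACCTG on the opposite strand), a sequence that Zeb and Snail repressors bind.
Cyp2c65 (chr19:39060756-39061055, plus strand): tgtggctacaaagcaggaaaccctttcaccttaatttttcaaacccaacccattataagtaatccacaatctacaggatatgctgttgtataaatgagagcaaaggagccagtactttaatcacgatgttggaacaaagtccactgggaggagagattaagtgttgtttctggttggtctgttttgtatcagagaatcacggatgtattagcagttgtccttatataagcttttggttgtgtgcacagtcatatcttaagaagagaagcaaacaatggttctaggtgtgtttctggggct
Cyp2c70 (chr19:40187237-40187536, minus strand): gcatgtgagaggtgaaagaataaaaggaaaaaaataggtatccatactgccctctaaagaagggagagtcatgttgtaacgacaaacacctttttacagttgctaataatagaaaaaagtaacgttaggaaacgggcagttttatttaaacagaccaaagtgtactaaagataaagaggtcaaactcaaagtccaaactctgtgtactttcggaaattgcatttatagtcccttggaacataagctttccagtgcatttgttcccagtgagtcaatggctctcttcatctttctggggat
Cyp2s1 (chr7:25816476-25816775, minus strand): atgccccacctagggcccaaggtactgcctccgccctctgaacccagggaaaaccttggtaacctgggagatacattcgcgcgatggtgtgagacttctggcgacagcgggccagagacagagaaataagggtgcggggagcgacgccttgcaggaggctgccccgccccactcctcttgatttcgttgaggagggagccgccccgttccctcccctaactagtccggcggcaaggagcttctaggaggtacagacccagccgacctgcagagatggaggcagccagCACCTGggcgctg
Cyp3a13 (chr5:137921570-137921869, minus strand): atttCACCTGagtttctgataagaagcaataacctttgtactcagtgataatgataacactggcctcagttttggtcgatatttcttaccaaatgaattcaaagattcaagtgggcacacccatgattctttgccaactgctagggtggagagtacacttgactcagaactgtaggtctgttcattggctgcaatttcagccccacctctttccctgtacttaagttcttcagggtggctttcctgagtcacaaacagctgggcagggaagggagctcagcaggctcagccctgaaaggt
Cyp4b1 (chr4:115647672-115647971, minus strand): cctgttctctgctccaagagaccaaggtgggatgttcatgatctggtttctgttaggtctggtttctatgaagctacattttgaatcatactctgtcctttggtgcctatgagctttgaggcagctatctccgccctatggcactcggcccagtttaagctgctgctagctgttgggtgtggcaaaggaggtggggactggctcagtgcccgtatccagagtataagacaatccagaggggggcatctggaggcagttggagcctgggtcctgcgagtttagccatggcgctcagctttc

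A set of 6 motifs was searched on both strands of these windows, which were at hand for 55 of the 74 P450 genes (62 windows) and for 27025 genes in all. The E-box CAGGTG stood in the windows of 14 of the 55 P450 genes and of 22.6% of all genes. Among the 8 P450 genes that fell and had a window, it stood in Cyp2s1, 38 bases after the start, in Cyp3a13, 246 bases before the start, and in Cyp11a1, 152 bases before and 17 bases after the start of 1 of its windows. The aryl hydrocarbon receptor core GCGTG stood in the windows of 12 of the 55 genes and in 35.2% of all genes. Of the genes that fell, Cyp4v3 held it, and Cyp4f14 held it in only 1 of its windows. The nuclear receptor repeats DR1 (0.0481% of all genes) and DR5 (0.0111%), the Smad element GTCTAGAC (0.248%) and the Hnf1 palindrome (0.0111%) were in no window of a P450 gene. Both direct repeats are built of AGGTCA and can share a copy of it. The windows of Cyp2c65, Cyp2c70 and Cyp4b1 held none of the 6 motifs. These are matches of letters in a short window and not mapped binding sites.

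A further 4 genes were above background only without TGF-β1, so their decrease has only a lower bound, taken against the lowest signal detected on each TGF-β1 array. Their fitted log2 changes, which set untreated signal against background, are not measured folds. They were -1.69 (SE 0.089) for Cyp2c70, -1.53 (SE 0.097) for Cyp4a12a, -1.38 (SE 0.091) for Cyp4f14, and -1.03, -0.71 and -0.61 for the probes of Cyp2d26. Cyp2c70 makes muricholic acids, the bile acids typical of mice. Its log2 signal was 7.99, 8.07 and 8.20 on untreated arrays and 6.46, 6.36 and 6.37 on TGF-β1 arrays, where it was not above background. The decrease was at least 2.71-fold.

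Cyp4a12a is a fatty acid ω-hydroxylase that converts arachidonic acid to a vasoactive hydroxy acid. It read 7.76, 7.91 and 8.06 untreated and 6.36, 6.36 and 6.42 with TGF-β1, at least 2.39-fold lower. Its close paralog Cyp4a12b was detected on 1 untreated array, and the letters of the probes were not at hand to see whether they tell the 2 genes apart.

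Cyp4f14 inactivates leukotriene B4 by ω-hydroxylation. It read 7.52, 7.55 and 7.75 untreated and 6.25, 6.21 and 6.21 with TGF-β1, at least 1.93-fold lower. All 3 probes of Cyp2d26 were detected on the 3 untreated arrays only, and their decreases were at least 1.49-, 1.32- and 1.21-fold. The brightest untreated values were those of ILMN_2704777, at 7.40, 7.13 and 7.17 against 6.29, 5.92 and 6.38.

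**Figure D3:**
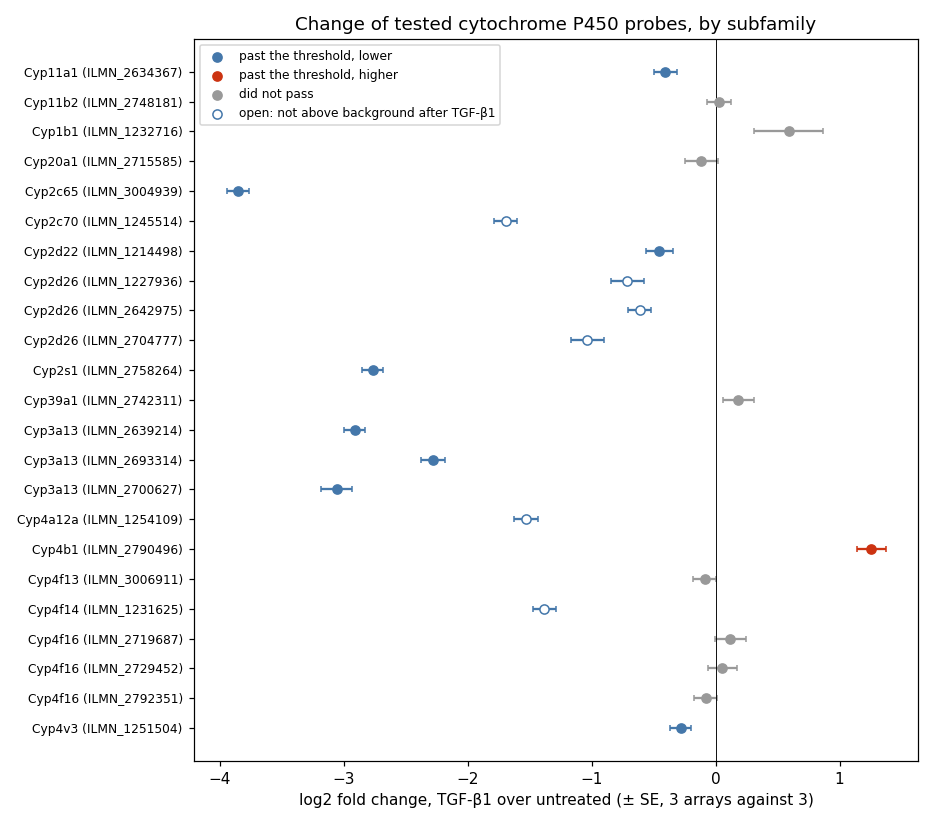
Log2 change from untreated to TGF-β1 (x axis) with its standard error for each of the 23 tested cytochrome P450 probes (y axis), from the fit over all tested probes, with open points for probes not above background after TGF-β1. The changes run from -3.86 for Cyp2c65 to 1.26 for Cyp4b1.

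Smaller decreases, in dim probes, were fitted for Cyp2d22, Cyp11a1 and Cyp4v3. Cyp2d22, often taken as the mouse counterpart of the human drug oxidase CYP2D6, read 7.30, 7.13 and 7.47 untreated and 6.95, 6.81 and 6.79 with TGF-β1. The log2 change was -0.45 (SE 0.11). Cyp11a1, the mitochondrial enzyme that cleaves the cholesterol side chain, read 7.42, 7.47 and 7.21 against 6.97, 6.95 and 6.96, a change of -0.40 (SE 0.093). Cyp4v3, the counterpart of the human fatty acid hydroxylase CYP4V2, read 6.83, 6.93 and 6.87 against 6.63, 6.48 and 6.67, a change of -0.28 (SE 0.087). Its probe was above background on only 1 TGF-β1 array, so that change is limited by background. The groups did not overlap in any of the 3 genes. These calls depended on single arrays. Without untreated array 2 the adjusted limma p of Cyp11a1 was 0.052, and without TGF-β1 array 2 that of Cyp2d22 was 0.051. Cyp4v3 missed the threshold when any array but TGF-β1 array 3 was left out, with adjusted p-values up to 0.13.

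Cyp4b1 was the P450 gene that rose. The enzyme oxidizes fatty acids and activates plant furan toxins, chiefly in lung. Its log2 signal was 7.61, 7.59 and 7.78 without TGF-β1 and 9.08, 8.96 and 8.70 on TGF-β1 arrays. The log2 change was 1.26 (SE 0.11, n = 3 per group), 2.39-fold higher, without overlap and ranked 132nd from the top of the tested probes. Its neighbours in the same stretch of chromosome 4, the Cyp4a genes, included Cyp4a12a among the genes that fell.

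Cyp1b1, which oxidizes estradiol and polycyclic aromatic hydrocarbons, had the widest spread of the tested members. It read 7.63, 7.60 and 6.95 on untreated arrays and 7.36, 8.30 and 8.29 on TGF-β1 arrays, so that TGF-β1 array 1 lay below untreated arrays 1 and 2. In each group the lowest value came from the array with the lowest mean raw signal. The log2 change was 0.59 (SE 0.28) and did not pass the threshold, with an adjusted limma p of 0.14. It was 0.90, with an adjusted limma p of 0.015, without TGF-β1 array 1. Without any other single array it was 0.37 to 0.70 and did not pass, with adjusted limma p-values of 0.15 to 0.37. With the mean raw signal of each array as a covariate, a run added after seeing the data, it was 0.85 with an adjusted limma p of 0.0012.

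The other tested members showed small differences. Cyp4f13 and the 3 probes of Cyp4f16 of the Cyp4f subfamily, which hydroxylates long-chain fatty acids and eicosanoids, had log2 changes of -0.09 and of 0.12, 0.05 and -0.08. Cyp20a1, an orphan enzyme, was at -0.11, and Cyp11b2, aldosterone synthase, at 0.03. Cyp39a1, an oxysterol hydroxylase of bile acid synthesis, was at 0.18. None of them passed the threshold, and their groups overlapped.

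In the order of the genes along the chromosomes, taken from RefSeq names only, the genes that fell mostly stood among neighbours that were not tested. Pseudogenes were left out of this order, Cyp2d13 among the genes with a probe. Chromosome 19 holds 15 protein-coding Cyp2c genes, Cyp2c23 lying apart from the rest, of which 10 had a probe and only Cyp2c65 and Cyp2c70 were tested, and both fell. Cyp2c65 lies next to Cyp2c55, which was not tested. On chromosome 15, 7 of 8 protein-coding Cyp2d genes had a probe and the 2 tested, Cyp2d22 and Cyp2d26, fell. On chromosome 5 only Cyp3a13 of the 6 Cyp3a genes with a probe was tested. It stands apart from the other Cyp3a genes, with Cyp2w1 as the only P450 gene between. On chromosome 17 the Cyp4f cluster held both outcomes: Cyp4f14 fell, and Cyp4f13 next to it and Cyp4f16 did not pass the threshold. None of the 5 Cyp2j genes with a probe on chromosome 4 and none of the 5 Cyp2b genes on chromosome 7 was tested.

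**Figure D4:**
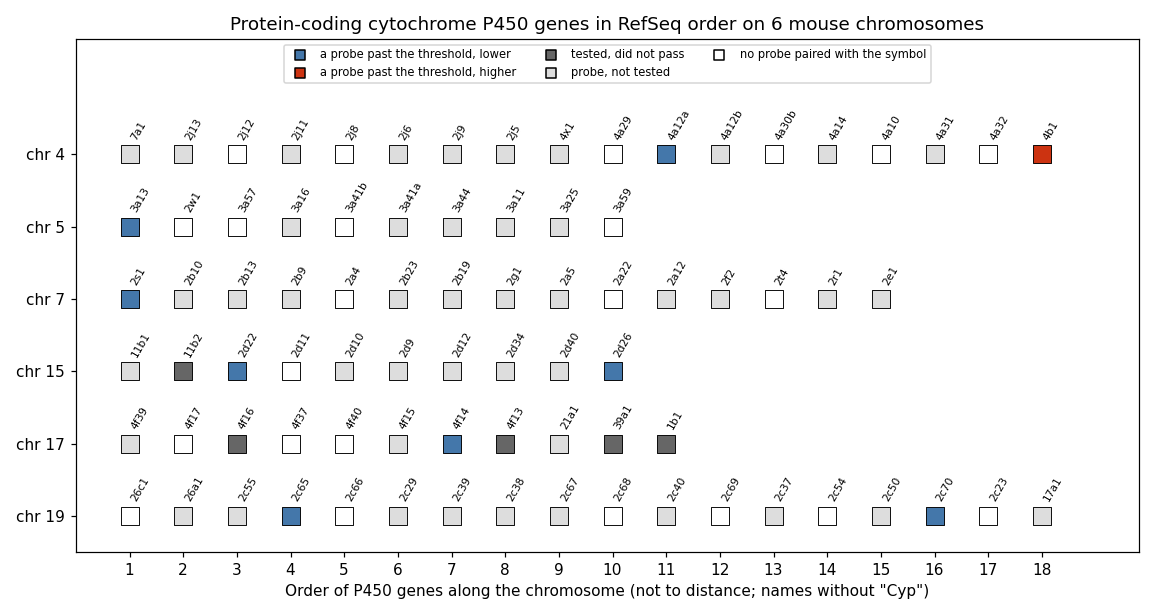
Protein-coding cytochrome P450 genes of 6 mouse chromosomes (y axis) in their order along the chromosome (x axis, rank and not distance), coloured by whether a probe fell (blue) or rose (red), was tested without passing, was not tested, or was not paired with the symbol. Both tested Cyp2c genes on chromosome 19 and both tested Cyp2d genes on chromosome 15 fell, and most other genes were not tested.

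Other genes of the P450 system were listed by function and read in the same fit. In that fit 16.4% of all tested probes rose and 15.9% fell. Of 12 electron donor genes listed, 7 had a probe and 5 were tested. P450 reductase was not among these 7 genes, so the list does not cover it. Of 7 probes tested for electron donors, none rose and 1 fell, and the median log2 change was 0.053. That 1 was Cyb5a, cytochrome b5, at 10.02, 10.01 and 9.04 untreated and 8.24, 8.66 and 9.12 with TGF-β1, a log2 change of -1.01 (SE 0.30). Its groups overlapped through untreated array 3. The call was lost without untreated array 1 or 2 or TGF-β1 array 1 or 2, with adjusted limma p-values of 0.092 to 0.11, and with a robust trended prior, with one of 0.12.

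Of 13 probes for heme synthesis and breakdown, 1 rose and 3 fell, beside 16.4% and 15.9% of all tested probes. The median log2 change of the list was 0.0043, beside 0.041 over all tested probes, and no test of the list was run. Hmox1, which breaks heme down, rose by 0.83 on the log2 scale (SE 0.12), while Alad, an early enzyme of heme synthesis, fell by 0.56 (SE 0.11) and Blvra, biliverdin reductase, fell by 0.45 (SE 0.079). The remaining probe that fell, named after its value was seen, was Alas1, the first enzyme of heme synthesis, at -0.37.

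Of 12 probes from 8 genes for receptors that regulate P450 genes, none rose and 7 probes of 5 genes fell, with a median of -0.39. Of the 20 such genes on the array, 11 were detected on no array. Vdr was named after its values were seen. Its probes ILMN_2445166 and ILMN_2445165 fell but were detected on untreated arrays only. Its probe ILMN_2864062, detected on all 6 arrays, was at 0.04 and did not pass. Pparg, a lipid-sensing receptor, fell by 1.87 (SE 0.12). Nr1i2, the pregnane X receptor that induces Cyp3a genes, fell by 0.93 (SE 0.13), from 8.22, 8.16 and 7.99 to 6.95, 7.44 and 7.22. Nr1h4, the bile acid receptor, was detected on the untreated arrays only and was at least 2.30-fold lower. Rxrb and Arnt, partners of these receptors and of Ahr, did not pass the threshold, at 0.20 and 0.12.

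Of 10 probes for hepatic and foregut transcription factors, 1 rose and 6 fell. Cdx2, an intestinal homeobox factor, fell by 2.18 (SE 0.083), Gata6 fell by 1.21 (SE 0.11), and Foxa3 rose by 0.90 (SE 0.087). Hnf4a, which drives many liver P450 genes, was at 0.12 and did not pass. The epoxide hydrolases that act on P450 products, Ephx1 and Ephx2, fell by 1.06 (SE 0.10) and 0.73 (SE 0.16), the 2 tested of 11 genes of that list. In the retinoid list, 1 of 5 tested probes rose and 2 fell, with Rdh10 at 0.47, Stra6 at -0.61 and Rdh11 at -0.39. These lists describe, and none was compared with random genes.

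**Figure D5:**
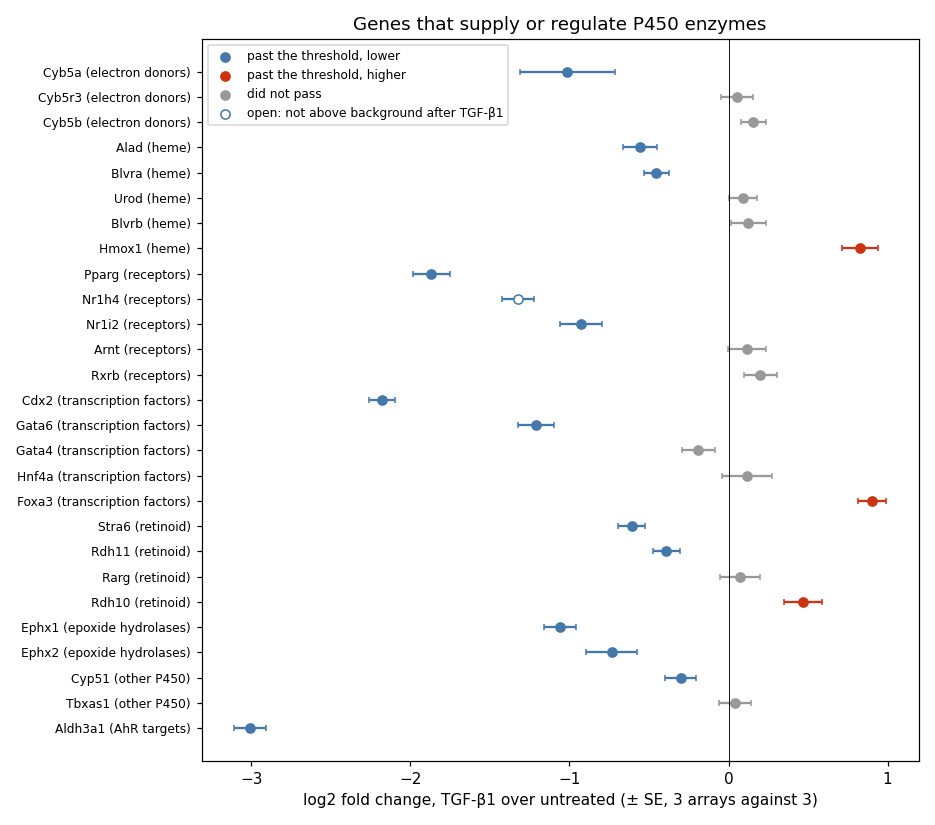
Log2 change from untreated to TGF-β1 (x axis) with its standard error (3 arrays against 3) for the named genes that supply or regulate P450 enzymes (y axis), coloured by whether they fell (blue), rose (red) or did not pass (grey), with an open point for a gene not above background after TGF-β1. Aldh3a1, Cdx2 and Pparg lie farthest to the left, at -3.01, -2.18 and -1.87.

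Markers of other cell types were read beside these genes. Each sum runs over all probes of a list, so probes detected on no array add background to it. Intestinal markers summed to 5009 to 5300 units untreated and 1736 to 1869 with TGF-β1, with Cdx2 and Vil1 lower and 3 of 6 genes detected on no array. Fibroblast markers summed to 739 to 803 and 868 to 915, and of 8 genes only Col1a1 was detected, on the TGF-β1 arrays, where it was at least 2.13-fold higher. Hepatocyte markers summed to 792 to 817 and 745 to 783, with Apoa1 lower, Ttr detected on all 6 arrays without passing, and Alb and Afp detected on no array. Endothelial markers summed to 603 to 623 and 551 to 619, with Pecam1 at -0.39 and past the threshold by the 1 of its probes that was detected, on untreated arrays only, and 4 of 6 genes, Cdh5 and Kdr among them, detected on no array. Immune markers summed to 736 to 766 and 744 to 782, with 0 of 10 probes tested and Ptprc detected on no array. Gastric epithelial markers summed to 48150 to 52472 and 37137 to 43284, and of 14 tested probes 7 fell, 1 rose and 6 did not pass. Krt19 fell by 1.59 on the log2 scale, Tff1 fell by 1.27, Gkn2 was at least 2.50-fold lower, and Krt18, named after its value was seen, rose by 0.47. Krt8 and Cdh1 were at -0.08 and -0.02 and did not pass. Their part in the P450 changes was not tested.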

How the data were processed

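RNA of 6 cultures of GIF-14 cells was hybridised to Illumina MouseRef-8 bead arrays. The authors deposited the non-normalized probe signals (intensity units from GenomeStudio) with a detection p-value per probe and array, and a table of quantile-normalized intensity values, used here as an alternative. Precision is limited by the number of arrays. Probes were named from the platform annotation: 23978 had 1 symbol, 1719 had none and 0 had several. All 74 member gene IDs were found in the RefSeq table.

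From the non-normalized signals, quantile normalization and log2 were applied, and lmFit and eBayes of limma 3.58.1 in R 4.3.3 compared TGF-β1 with untreated over probes that either group detected (p under 0.05) on each of its 3 arrays, with Benjamini-Hochberg adjustment at 0.05. The scripts were checked on simulated data. The methods' test, SAM, was not run because its null comes from regrouping the samples. Every P450 probe that passed the filter was named, and from each other list up to 3 probes past the threshold with the largest changes and up to 2 that did not pass. The members and lists were chosen with earlier results of these data known. Lower bounds set the untreated mean against the higher of each array's lowest detected signal and the probe's own signal, on the log2 scale. With 3 arrays against 3, an exact permutation test cannot go below p = 0.10 and was not used.

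Alternatives were neqc background correction with an offset of 16, mean scaling, the deposited normalized values, no filter or a filter at 0.01 on all 6 arrays, 1 value per gene, a replicate block, a robust trended prior, a 1.5-fold minimum and leaving out each array. Mean raw signal as a covariate, and leaving out the 2 dimmest arrays together, were added after seeing the data. Arrays were not paired by replicate number in the main fit. Probe sequences and protein sequences were not used here, so cross-hybridisation between paralogs was not checked.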

Additional observations from a re-analysis of the deposited data

How the results depend on the processing

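Of the 15 P450 probes called, 12 kept their call under every alternative run in which they were tested, and the exceptions were Cyp11a1, Cyp2d22 and Cyp4v3. The count of P450 probes that fell, 14 in the report, ran from 12 to 14 without single arrays and was 6 under the stricter filter, which by construction drops probes lost to background. The count that rose, 1 in the report, was 2 without the detection filter (Cyp21a1 added, a probe not above background on any array) and 2 with mean raw signal as a covariate (Cyp1b1 added), and ran from 1 to 2 without single arrays. Over all probes, 1835 rose and 1776 fell. A 1.5-fold minimum left 620 and 869, and leaving out arrays gave 1214 to 2082 and 1372 to 1853. With neqc, changes of dim probes were larger in both directions, such as -2.93 for Cyp2c70 and -2.71 for Cyp4a12a. Cyp39a1, which was not called, was at 0.34 in place of 0.18. The cause was not tested.

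Deviations from the group means correlated at -0.67, 0.073 and -0.78 for replicate numbers 1, 2 and 3. Deviations of 3 arrays from their own mean are not independent, so these values cannot tell whether cultures of the same number were handled together. With the replicate block, 946 probes rose and 1151 fell, 11 P450 probes fell and 1 rose, and adjusted limma p-values were 0.056 for Cyp11a1, 0.053 for Cyp2d22 and 0.13 for Cyp4v3. Under the block the electron donor, other P450, hepatocyte and endothelial lists each had 0 probes that fell in place of 1, the gastric and retinoid lists had 0 that rose in place of 1, and the retinoid list had 1 that fell in place of 2.

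Without single arrays, the electron donor list had 0 to 1 probes that rose and 0 to 1 that fell, the retinoid list 0 to 1 that rose, and the hepatocyte and endothelial lists 0 to 1 that fell. Leaving out arrays gave 4 to 5 fallen probes for hepatic and foregut transcription factors, in place of 6. Cyp51, the fallen probe of the list of other P450 enzymes (-0.30 on the log2 scale), was lost with any array left out, 0 probes falling, and the list also had 0 with neqc and with no filter. The call of Cyb5a was also lost with the robust trended prior.

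Signs turned only among probes that were not called. Leaving out arrays gave log2 changes from -0.052 to 0.097 for Cyp11b2, -0.23 to 0.012 for Cyp20a1, -0.069 to 0.12 for Cyp4f16 (ILMN_2729452), -0.028 to 0.13 for Cyb5r3, -0.029 to 0.20 for Hnf4a, -0.025 to 0.18 for Rarg, -0.050 to 0.11 for Tbxas1 and -0.26 to 0.15 for Cdh1. With the covariate Cyp11b2 was at -0.020, Cyp20a1 at 0.0068, Rarg at -0.0268 and Cdh1 at 0.23. The mean over the probes of Cyp4f16 was 0.030, against -0.080 for the probe ILMN_2792351 alone. Signal over background limits what can be said of the 70 P450 probes detected on no array.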

Other observations

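With no detection filter, 4 further P450 probes passed an adjusted limma p of 0.05, chosen here after their values were seen. Cyp2c55, detected on 1 untreated array, had a log2 change of -0.54, Cyp8b1, detected on 2 untreated arrays, of -0.32, and Cyp2c37, detected on none, of -0.27. Cyp21a1, a steroid hydroxylase of the adrenal cortex, was at 0.58 with 1 of its probes and was not above background on any array.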
